A study of Mus musculus with 10 samples.

Results

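The insulin receptor to GLUT4 cascade was taken as 10 genes: Insr, Irs1, Irs2, Pik3r1, Pik3ca, Pdpk1, Akt1, Akt2, Tbc1d4 and Slc2a4. They were picked by gene symbol as signalling components, without genes that insulin represses. No measured value was a criterion, but earlier results of these data were known when the genes were chosen. Each of the 10 had a row of its own among the 24160 gene rows of the table, and all 10 were among the 14611 genes tested. The 6 MC4R-/- libraries came from mice without the melanocortin 4 receptor, a G-protein-coupled receptor best known from the hypothalamic control of feeding. The 4 WT libraries came from wild type mice. Both genotypes were C57BL6/J mice from matings of heterozygous parents, kept at 24 °C to an age of 30 weeks, and the tissue was the posterior wall of the left ventricle. The labels name no drug, diet or insulin treatment, and do not give sex, the nature of the Mc4r allele, or whether each library is a separate animal, so p-values measure only the spread between these samples, which may be technical.

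Insulin binds the receptor tyrosine kinase encoded by Insr, which phosphorylates the adaptor proteins of the Irs genes. These recruit phosphoinositide 3-kinase, made of a regulatory subunit (Pik3r1) and a catalytic subunit (Pik3ca), whose lipid product brings the kinase Pdpk1 to the kinases Akt1 and Akt2. Akt phosphorylates and restrains Tbc1d4, a Rab GTPase-activating protein that holds vesicles inside the cell, and the vesicles then carry the glucose transporter GLUT4 (Slc2a4) to the surface. Heart and skeletal muscle use this route for insulin-stimulated glucose uptake. The cascade acts largely through phosphorylation and movement of proteins, which messenger RNA levels do not measure.

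Mc4r had 0, 0, 2, 0, 0 and 2 reads in MC4R-/- replicates 1 to 6, against 2, 0, 0 and 0 reads in WT replicates 1 to 4. At this depth of 4145033 to 6425785 reads per library it checks no genotype label. Values below are normalized counts, reads per gene scaled by 1 factor per library. Cardiomyocyte markers summed to between 380603 and 437924 normalized counts in MC4R-/- libraries (median 409425), against 397592 to 445659 in WT libraries (median 436667). Adipocyte markers were near 0, with no gene above 9.12 in any library. A pair of libraries stood apart most in their cell markers. Lymphocyte markers summed to between 7.84 and 20.2 normalized counts in the MC4R-/- libraries, against at most 26.9 in 3 WT libraries and 639 in WT replicate 2. MC4R-/- replicate 5 held 3155 of atrial markers, against 504 to 1338 in the WT libraries. The atrial marker Myl7 was graded over several libraries. It had 720 normalized counts in MC4R-/- replicate 5, 134 in MC4R-/- replicate 6, 63.0 in MC4R-/- replicate 2 and 48.1 in WT replicate 1. In the other libraries Myl7 was at most 8.71. Results whose call changed without WT replicate 2 or MC4R-/- replicate 5 are given with and without them.

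Insr was the member that passed the test, and its mean fell by 19.5% in MC4R-/- ventricles relative to WT. Of the 10 members, 9 had a lower mean in MC4R-/- libraries, and the exception was Pik3r1. Akt2 was the member whose libraries of the genotypes did not overlap, although its adjusted p was 0.231. That is 1 of 10 members, beside 2.28% of all genes without overlap in either direction and 0.938% without overlap and lower. Irs2 had the lowest fold change of the members, with wide spread and an adjusted p of 0.184. In the fit over all genes (limma on log2 of the normalized count plus 1, Benjamini-Hochberg), 1 of 10 members was called at an adjusted p of 0.05, and it was lower. The background was 0.459% of all genes tested called in either direction and 0.171% called lower, or 25 of 14611. At an unadjusted p below 0.05 there were 3 members, Insr, Irs2 and Akt2, all lower, beside 9.60% of all genes in either direction and 4.41% lower. The median log2 fold change was -0.15 over the members and -0.01 over all genes tested, of which 51.6% were lower.

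**Figure D1:**
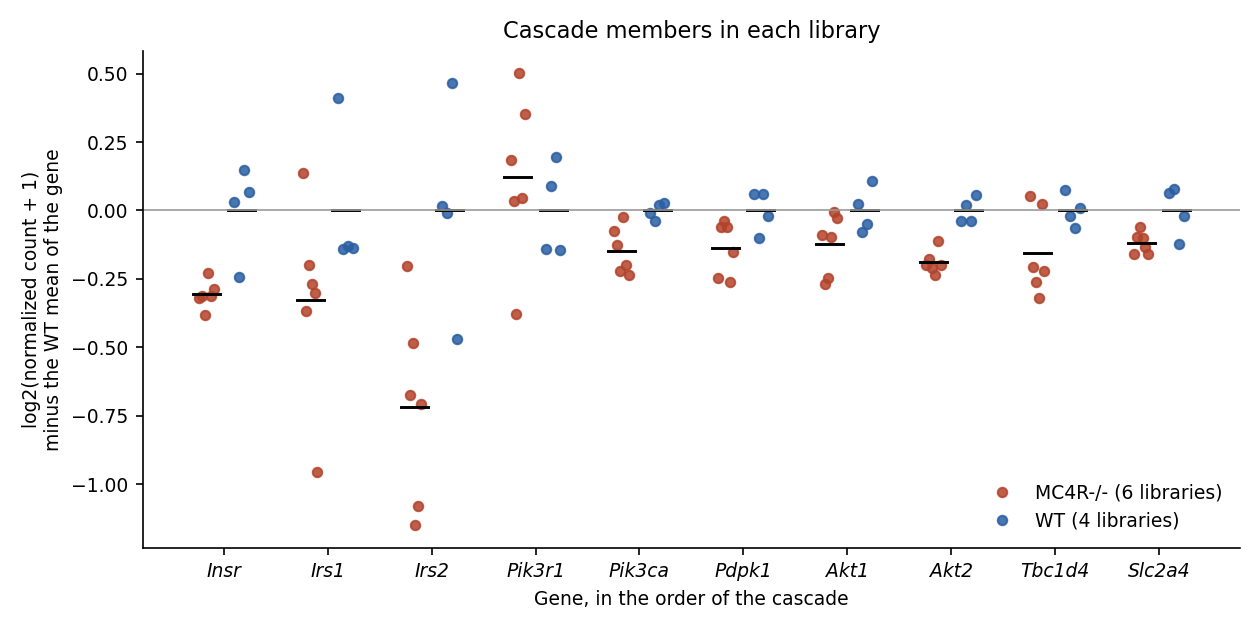
Normalized counts of the 10 members on a log2 scale after adding 1, each minus the mean of the WT libraries for that gene. Points are libraries (6 MC4R-/- left, 4 WT right) and black bars are group means. In 9 of 10 genes the MC4R-/- mean lies below 0, the WT mean, and in Akt2 all 6 MC4R-/- points lie below all 4 WT points.

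Counted by library, the same values restate this difference and add no separate evidence. MC4R-/- replicates 1 to 6 had 7, 9, 10, 9, 8 and 9 of the 10 members below the WT mean. WT replicates 1 to 4 had 3, 7, 5 and 5 below it. The lowest library of every member was a MC4R-/- library, shared among all 6, and the highest was a WT library for 9 members. The same counts over all genes are not given here, and members of 1 library are not independent of each other. Of the cardiomyocyte markers 5 of 7 were also lower in MC4R-/- libraries (median log2 fold change -0.10, 0 called; smallest adjusted p 0.618 in limma, 0 genes by edgeR or DESeq2, and 0 with an unadjusted limma p below 0.05). Fibroblast markers were higher in 6 of 6 genes (median 0.26), and Lum, a fibroblast proteoglycan of the matrix, rose by 0.56 ± 0.10 on the log2 scale (SE; limma, adjusted p = 0.0112). Smooth muscle and pericyte markers were lower in 5 of 6 genes (median -0.07; 0 called by limma, edgeR or DESeq2, and 1 at an unadjusted p below 0.05). Among them Acta2, the smooth muscle actin, was at -0.45 (limma, adjusted p = 0.283). Macrophage markers were higher in 5 of 6 genes (median 0.18; 0 called by limma or edgeR, 1 by DESeq2, and 3 at an unadjusted p below 0.05). Over all genes tested, 9.60% had an unadjusted limma p below 0.05. Fewer cells of a type and less RNA per cell cannot be told apart in bulk tissue, and the part of cell makeup in the members' values was not tested.

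At the receptor, Insr (chr8:3150922-3279649, GRCm38) had a lowest value of 1262 normalized counts, a median of 1326 and a highest of 1405 in MC4R-/- libraries. In WT libraries it had 1681, 1390, 1822 and 1725 normalized counts. The MC4R-/- libraries lay close together, and 5 of 6 were below all WT libraries, with only WT replicate 2 inside their range. The mean was 1331 ± 46.3 (SD, n = 6) in MC4R-/- libraries and 1654 ± 186 (SD, n = 4) in WT libraries. The log2 fold change was -0.31 ± 0.07 (SE; 95% interval -0.45 to -0.16), with an adjusted p of 0.0481 (limma). This call sat at the threshold. It held in 8 of 22 other settings, and of the 10 fits that left out a library it held in 1, that without WT replicate 2. There the log2 fold change was -0.39 (adjusted p = 0.00186), and without WT replicate 4 it was -0.28 (adjusted p = 0.183). Without MC4R-/- replicate 5 alone the log2 fold change was -0.31 (adjusted p = 0.0561), which ended the call. Without both WT replicate 2 and MC4R-/- replicate 5 the adjusted p was 0.00122. On the reads recovered from the table, edgeR gave Insr an adjusted p of 0.0613 and called 0 of 10 members, beside 50 genes (0.342%) of all tested in either direction and 0.137% lower. DESeq2 gave Insr 0.00342 and called 2 members, Insr and Akt2. Of the 11724 genes to which it gave an adjusted p, it called 1.01% in either direction and 0.375% lower. The direction was the same in all 22 settings.

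**Figure D2:**
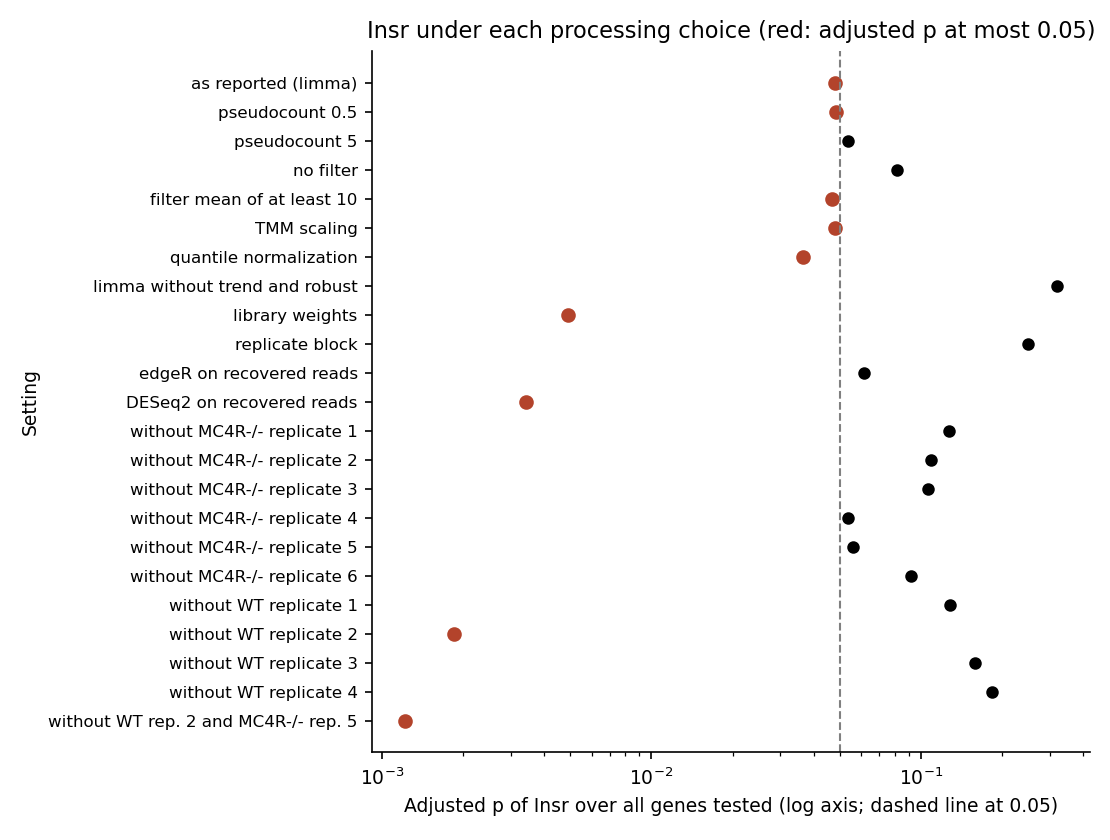
Adjusted p of Insr over all genes tested (log axis) under the reported fit and 22 other settings, with a dashed line at 0.05 and red points at or below it. The points spread from 0.00122 to 0.320, and 9 of the 10 fits that leave out 1 library lie right of the line.

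Igf1r, the receptor of insulin-like growth factor and the closest relative of Insr, had 118 to 205 normalized counts in MC4R-/- libraries (median 180), against 225, 209, 227 and 232 in WT libraries. All 6 MC4R-/- libraries lay below all 4 WT libraries. Its log2 fold change was -0.44 ± 0.14 (SE), which did not pass the test over all genes (limma, adjusted p = 0.255). The ratio of Insr to Igf1r counts was 8.35 ± 2.35 in MC4R-/- libraries (SD, n = 6) and 7.39 ± 0.571 in WT libraries (SD, n = 4). The log2 ratio differed by 0.13 between genotypes (exact two-sided permutation test over 210 splits, p = 0.571, adjusted over 6 ratios 0.571). It was 0.03 without MC4R-/- replicate 6, 0.04 without MC4R-/- replicate 4, 0.08 without WT replicate 2 and 0.20 without MC4R-/- replicate 3.

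Both Irs adaptors were low and varied most among the members. Irs1, the adaptor best known from muscle and fat, had 109 to 234 normalized counts in MC4R-/- libraries (median 174), against 283, 192, 194 and 193 in WT libraries. WT replicate 1 stood alone above the other WT libraries, and MC4R-/- replicate 1 was above 3 of the 4 WT libraries. This gave a log2 fold change of -0.33 ± 0.18 (SE; limma, adjusted p = 0.619). Without WT replicate 1 it was -0.19 and without MC4R-/- replicate 6 it was -0.20. Irs2, the adaptor best known from liver and pancreatic beta cells, had 18.3 to 36.2 normalized counts in MC4R-/- libraries (median 25.5), against 42.3, 41.5, 58.1 and 29.9 in WT libraries. Of the MC4R-/- libraries 5 of 6 lay below all WT libraries, and MC4R-/- replicate 1 lay between WT replicate 4 and the rest. Its log2 fold change, -0.72 ± 0.22 (SE; 95% interval -1.16 to -0.27), was the lowest of the 10 members, yet the adjusted p was 0.184 (limma). Without WT replicate 3, the library with the fewest reads in total (4145033), the log2 fold change was -0.56 (limma, adjusted p = 0.432). Without WT replicate 4 it was -0.87 (adjusted p = 0.155). Irs2 rested on 18 to 46 reads per library, the fewest of the members. The ratio of Irs1 to Irs2 counts was 6.99 ± 1.95 in MC4R-/- libraries and 5.27 ± 1.58 in WT libraries (SD), a log2 difference of 0.39 (exact two-sided permutation p = 0.248, adjusted 0.366), which was 0.19 without WT replicate 3.

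The promoters of the 2 Irs genes and of Akt2 are shown because these were the adaptor pair and the member without overlap between genotypes. The promoter windows run from 250 bases before to 50 bases after the start site and come from RefSeq on GRCm38.p6, where 8 of the 10 members had an entry, without Insr and Slc2a4. Irs1 is at chr1:82291390-82291689 (minus strand), Irs2 at chr8:11008880-11009179 (minus strand) and Akt2 at chr7:27591302-27591601 (plus strand, the first of its 4 windows). Each is written 5′ to 3′ on the gene's strand, and capitals mark the E-box CACGTG, bound by basic helix-loop-helix factors such as TFE3 and USF, and the forkhead core TGTTT, which lies within sites of FOXO factors, searched on both strands (AAACA on the other).
Irs1: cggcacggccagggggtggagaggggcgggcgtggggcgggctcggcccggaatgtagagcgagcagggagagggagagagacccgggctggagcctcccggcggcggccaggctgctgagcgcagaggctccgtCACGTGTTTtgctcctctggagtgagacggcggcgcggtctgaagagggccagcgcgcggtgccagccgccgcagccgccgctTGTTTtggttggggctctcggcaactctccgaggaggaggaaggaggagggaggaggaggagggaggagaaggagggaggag
Irs2: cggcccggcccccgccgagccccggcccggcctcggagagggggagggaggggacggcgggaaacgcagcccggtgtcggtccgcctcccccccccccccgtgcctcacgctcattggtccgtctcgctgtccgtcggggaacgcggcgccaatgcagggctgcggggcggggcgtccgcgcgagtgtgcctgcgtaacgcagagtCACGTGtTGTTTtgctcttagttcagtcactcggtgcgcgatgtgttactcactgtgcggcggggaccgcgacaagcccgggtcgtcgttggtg
Akt2: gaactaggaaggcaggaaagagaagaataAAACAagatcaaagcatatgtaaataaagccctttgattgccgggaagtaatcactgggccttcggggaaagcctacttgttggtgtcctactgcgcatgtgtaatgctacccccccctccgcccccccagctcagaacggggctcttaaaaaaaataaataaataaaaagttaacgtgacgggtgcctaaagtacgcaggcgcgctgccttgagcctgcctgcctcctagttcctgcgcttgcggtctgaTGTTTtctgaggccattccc
In Irs1 an E-box began 115 bases before the start site and ran into a forkhead core that began 111 bases before it, the letters of the matches overlapping. A further forkhead core began 32 bases before the start. In Irs2 the E-box began 44 bases before the start site and a forkhead core began 37 bases before it, with no overlap. The Irs windows shared the 10-base runs gtcacgtgtt and tgttttgctc, which hold these matches except the further forkhead core of Irs1. The Akt2 window held forkhead cores 221 bases before (other strand) and 31 bases after the start, and no E-box. Among 14 windows of the 8 members, an E-box was found in 2, those of Irs1 and Irs2, and 7.15% of all 32851 windows hold it. A forkhead core was in 9 of the 14 windows, against 50.5% of all windows, and the GC box GGGCGG, bound by SP factors, was in 8 of the 14, against 35.7%. These matches describe letters, not binding. G and C made up 71.3% of the Irs1 window and 72.0% of the Irs2 window.

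At phosphoinositide 3-kinase, the regulatory and the catalytic subunit had opposite mean differences, and neither passed the test. Pik3r1, the regulatory subunit that docks on phosphorylated Irs proteins, had 980 to 1805 normalized counts in MC4R-/- libraries (median 1383), against 1157, 1357, 1462 and 1152 in WT libraries. MC4R-/- replicate 4 was the highest and MC4R-/- replicate 3 the lowest of all 10 libraries, so the WT range lay within the MC4R-/- range. On the log2 scale the difference was 0.12 ± 0.15 (SE; 95% interval -0.22 to 0.47; limma, adjusted p = 0.863). It was smaller without MC4R-/- replicate 4 (0.05) or 6 (0.08) and without WT replicate 1 (0.08) or 4 (0.07), and greater without MC4R-/- replicate 3 (0.22) or WT replicate 3 (0.19). Pik3ca, the catalytic alpha subunit, had 437 to 507 normalized counts in MC4R-/- libraries (median 461), against 513, 502, 523 and 526 in WT libraries. The WT libraries were tight, and 5 of 6 MC4R-/- libraries lay below all of them. The log2 fold change was -0.15 ± 0.07 (SE; limma, adjusted p = 0.525). The ratio of Pik3r1 to Pik3ca counts was 3.03 ± 0.549 in MC4R-/- libraries and 2.49 ± 0.306 in WT libraries (SD), a log2 difference of 0.27 (exact two-sided permutation p = 0.0952, adjusted 0.229).

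Pdpk1, the kinase that phosphorylates the activation loop of Akt, had 334 to 390 normalized counts in MC4R-/- libraries (median 372), against 419, 374, 418 and 395 in WT libraries. The lowest WT library lay among the MC4R-/- libraries, 3 of which were below it. This gave a log2 fold change of -0.14 ± 0.08 (SE; limma, adjusted p = 0.618).

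Of the Akt kinases, Akt2 separated the genotypes and Akt1 did not. Akt2, the isoform best known for glucose uptake, had 1241 to 1350 normalized counts in MC4R-/- libraries (median 1271), against 1422, 1480, 1422 and 1518 in WT libraries. All 6 MC4R-/- libraries were below all 4 WT libraries. The mean was 1281 ± 37.6 (SD, n = 6) in MC4R-/- libraries and 1460 ± 47.1 (SD, n = 4) in WT libraries, which is 12.3% lower in MC4R-/- by the ratio of means. On the log2 scale the difference was -0.19 ± 0.06 (SE; 95% interval -0.32 to -0.06), with an unadjusted p of 0.0051 and an adjusted p of 0.231 (limma). DESeq2 gave the same log2 fold change with an adjusted p of 0.0259, while edgeR gave 0.175. Akt1, the isoform best known for growth and survival, had 1075 to 1290 normalized counts in MC4R-/- libraries (median 1214), against 1315, 1225, 1252 and 1396 in WT libraries. MC4R-/- replicates 5 and 6 reached into the WT range. The log2 fold change was -0.12 ± 0.07 (SE; limma, adjusted p = 0.621). The ratio of Akt2 to Akt1 counts was 1.08 ± 0.0805 in MC4R-/- libraries and 1.13 ± 0.0589 in WT libraries (SD), a log2 difference of -0.07 (exact two-sided permutation p = 0.305, adjusted 0.366), which was -0.03 without WT replicate 2 and -0.02 without that library and MC4R-/- replicate 5. A difference between the genotype effects of the isoforms was therefore not shown.

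At the vesicle, Tbc1d4 had 647 to 838 normalized counts in MC4R-/- libraries (median 696), against 850, 796, 773 and 812 in WT libraries. MC4R-/- replicates 1 and 5 lay within the WT range and the other 4 below it. This gave a log2 fold change of -0.16 ± 0.08 (SE; limma, adjusted p = 0.544). The ratio of Tbc1d4 to its paralog Tbc1d1, a second Rab GTPase-activating protein phosphorylated by Akt and by AMP-activated kinase, was 5.09 ± 0.799 in MC4R-/- libraries and 6.02 ± 0.988 in WT libraries (SD). The log2 ratio differed by -0.24 (exact two-sided permutation p = 0.114, adjusted 0.229), and by -0.13 without WT replicate 1.

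Slc2a4 (chr11:69942286-69948216), the transporter at the end of the cascade, had 2813 to 3012 normalized counts in MC4R-/- libraries (median 2896), against 3285, 3320, 2884 and 3102 in WT libraries. WT replicate 3 fell among the MC4R-/- libraries, 3 of which were below it, and the other WT libraries were above all 6. The mean was 2894 ± 78.4 (SD, n = 6) in MC4R-/- libraries and 3148 ± 200 (SD, n = 4) in WT libraries. On the log2 scale the difference was -0.12 ± 0.06 (SE; 95% interval -0.24 to 0.0048; limma, adjusted p = 0.551), so a decrease of more than 0.24 on the log2 scale lay outside the interval. Slc2a1, which encodes the insulin-independent transporter GLUT1, had 69.2 to 114 normalized counts in MC4R-/- libraries (median 88.6), against 131, 123, 107 and 108 in WT libraries. Its log2 fold change was -0.41 ± 0.13 (SE; limma, adjusted p = 0.220), and MC4R-/- replicate 5 was the library that reached into the WT range. Without it the log2 fold change was -0.49 (adjusted p = 0.0832), and without it and WT replicate 2 it was -0.47 (adjusted p = 0.113). The ratio of Slc2a4 to Slc2a1 counts was 33.6 ± 5.97 in MC4R-/- libraries and 27.0 ± 1.45 in WT libraries (SD), a log2 difference of 0.29 (exact two-sided permutation p = 0.0667, adjusted 0.229). None of the 6 ratios passed the test after adjustment, and the smallest p that the 210 splits allow is 0.00952.

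**Figure D3:**
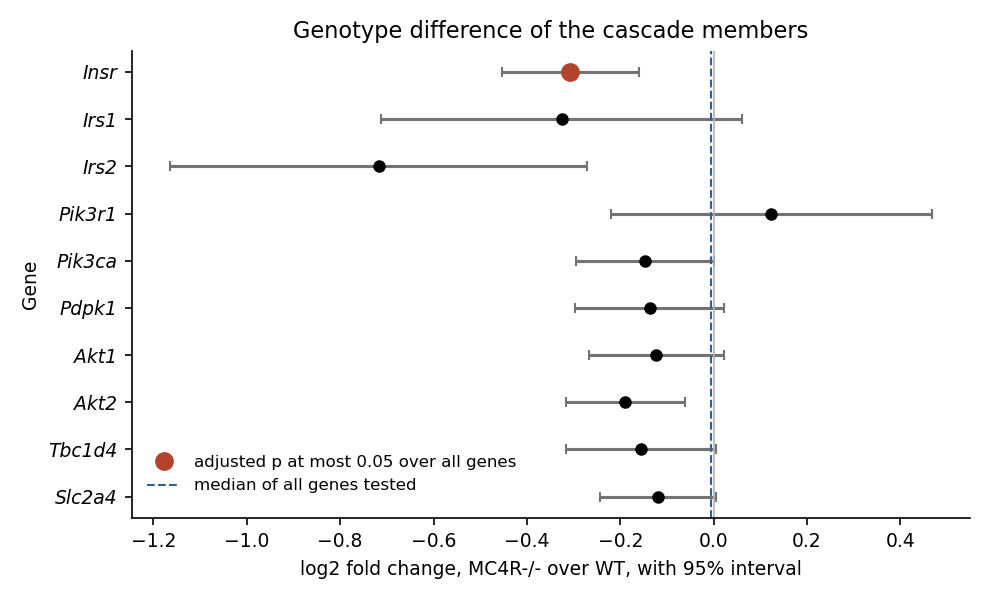
Log2 fold change of each member, MC4R-/- over WT, with its 95% interval (limma), from the receptor at the top to the transporter at the bottom. The red point (Insr) is at or below an adjusted p of 0.05, the dashed line is the median of all genes tested, and the intervals of Insr, Irs2 and Akt2 lie below 0.

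Levels between members were compared per kilobase of transcript. Slc2a4 was the most abundant member, at 1147 ± 31.1 normalized counts per kilobase in MC4R-/- libraries (SD, n = 6) and 1247 ± 79.3 in WT libraries (SD, n = 4). Akt1 followed at 443 ± 33.6 in MC4R-/- libraries and 482 ± 28.4 in WT libraries. Insr stood at 142 ± 4.95 per kilobase in MC4R-/- libraries and 177 ± 19.9 in WT libraries. Averaged over all 10 libraries, the order was Slc2a4 (1187 per kilobase), Akt1 (459), Akt2 (362), Pik3r1 (271), Insr (156), Tbc1d4 (117), Pdpk1 (106), Pik3ca (54.5), Irs1 (20.8) and Irs2 (5.16). The first of these was 230-fold above the last. Neighbours in this order kept it in all 10 libraries except for Akt2 above Pik3r1, in 9 libraries, and Tbc1d4 above Pdpk1, in 8. Those and other positions also depend on the transcript chosen. With the shortest or longest annotated transcript, Akt2 ranged from 298 to 463, Pik3r1 from 191 to 466 and Pdpk1 from 53.0 to 220 per kilobase. With the shortest transcript, Akt2 and Pik3r1 lay above Akt1. Pdpk1 lay above Insr with its shortest transcript and below Pik3ca with its longest. Among paralogs, Slc2a1 (30.7) and Igf1r (16.7) lay far below Slc2a4 and Insr per kilobase.

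**Figure D4:**
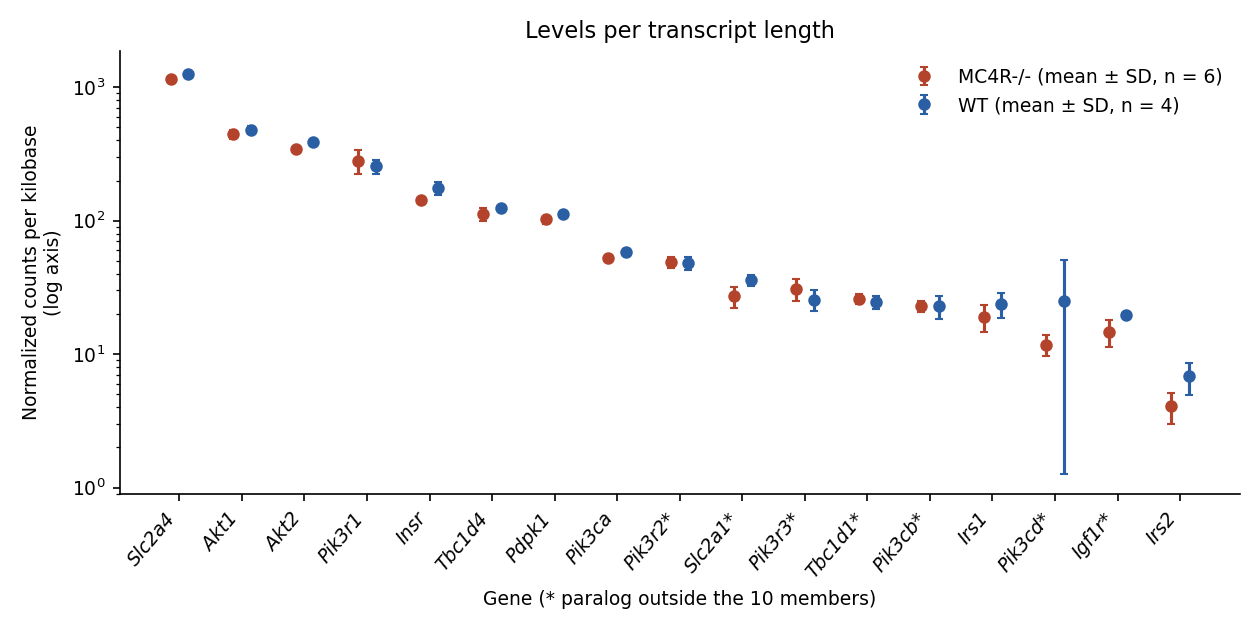
Normalized counts per kilobase of transcript (log axis) for the members and, with an asterisk, paralogs of them, as mean and SD in MC4R-/- (left, n = 6) and WT (right, n = 4) libraries. The order runs from Slc2a4 at 1187 to Irs2 at 5.16 on the mean over all libraries, and the long WT bar of Pik3cd, cut off at its lower end because the SD exceeds the mean, comes from WT replicate 2 (286 normalized counts).

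The members differed in how much libraries of a genotype varied. Insr had a coefficient of variation of 3.48% in MC4R-/- libraries and 11.2% in WT libraries. Akt2 had 2.94% in MC4R-/- libraries and 3.23% in WT libraries, the tightest member over both genotypes. Slc2a4 had 2.71% in MC4R-/- libraries and 6.36% in WT libraries. Irs2 was the widest, with 25.9% in MC4R-/- libraries and 27.0% in WT libraries. Pik3r1 had 20.2% in MC4R-/- libraries and 11.9% in WT libraries at counts near those of Insr and Akt2.

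The genes around the cascade were split between directions. Of the paralogs of the members, 8 of 10 were tested (the means of Insrr and Irs4 were below 1 normalized count), 4 higher and 4 lower in MC4R-/- libraries (median log2 fold change -0.00). Receptor adaptors and the Cbl branch had 7 higher and 5 lower of 12 genes (median 0.04), led by Ptpn11, a phosphatase that binds Irs proteins, at 0.17 ± 0.06 (SE; limma, adjusted p = 0.325). Vesicle traffic genes had 12 higher and 12 lower of 24 (median 0.00). The GTPase Rab13 was at 0.48 ± 0.23 (limma, adjusted p = 0.510), on only 10 to 24 reads per library. The vesicle receptor Lrp1 was at 0.15 ± 0.10 (limma, adjusted p = 0.681) and at 0.06 without WT replicate 3. The count called was 0 by limma, 0 by edgeR and 0 by DESeq2 in each of these 3 lists. At an unadjusted p below 0.05 there were 0 higher and 2 lower paralogs, 1 higher and 1 lower adaptor, and 1 higher and 0 lower traffic genes. That was 25% of the tested paralogs, 16.7% of the adaptors and 4.17% of the traffic genes, beside 9.60% of all genes tested.

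Brakes on the cascade had 10 higher and 7 lower of 17 genes (median 0.02), and Akt substrates with the mTOR complexes had 8 higher and 9 lower of 17 (median -0.02). In both lists 0 genes were called by limma and 0 by edgeR, and 1 in each by DESeq2. DESeq2 called 1.01% of all genes to which it gave an adjusted p. At an unadjusted p below 0.05 there were 3 higher and 2 lower brakes, and 2 higher and 4 lower substrates. That was 29.4% of the brakes and 35.3% of the substrates, beside 9.60% of all genes tested and 30% of the members. Pik3ip1, a membrane protein that inhibits phosphoinositide 3-kinase, came closest to the threshold. It had 296 to 406 normalized counts in MC4R-/- libraries (median 337), against 432, 425, 425 and 487 in WT libraries, with no overlap. Its log2 fold change was -0.36 ± 0.09 (SE; limma, adjusted p = 0.0587; DESeq2, adjusted p = 0.0217). Pik3ip1 passed the limma threshold without WT replicate 2 (adjusted p = 0.0433), without MC4R-/- replicate 5 (0.0421), without both (0.0259), without MC4R-/- replicate 6 (0.0314) and with library weights (0.0117). Leaving out each of the other 7 libraries gave it adjusted p values of up to 0.247, that without WT replicate 4. Enpp1, an ectoenzyme reported to inhibit the insulin receptor, had 56.7 to 98.1 normalized counts in MC4R-/- libraries (median 68.9), against 51.0, 40.6, 41.5 and 59.9 in WT libraries. MC4R-/- replicates 1 and 5 overlapped with WT replicate 4, and the log2 fold change was 0.54 ± 0.16 (limma, adjusted p = 0.188). Pfkfb2, the cardiac enzyme that makes the activator of phosphofructokinase and an Akt substrate, had 948 to 1144 normalized counts in MC4R-/- libraries (median 1104), against 1440, 1088, 1393 and 1450 in WT libraries. WT replicate 2 was the WT library within the MC4R-/- range. The log2 fold change was -0.31 ± 0.08 (limma, adjusted p = 0.0879; DESeq2, adjusted p = 0.0257), and without WT replicate 2 it was -0.41 (adjusted p = 0.00243). Eif4ebp1, the translation repressor downstream of mTOR, had 243 to 356 normalized counts in MC4R-/- libraries (median 278), against 376, 379, 349 and 366 in WT libraries. MC4R-/- replicate 5 was the MC4R-/- library within the WT range. Its log2 fold change was -0.37 ± 0.10 (limma, adjusted p = 0.115), without MC4R-/- replicate 5 it was -0.43 (adjusted p = 0.0266), and without that library and WT replicate 2 it was -0.41 (adjusted p = 0.0291). With library weights the adjusted p was 0.0400.

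**Figure D5:**
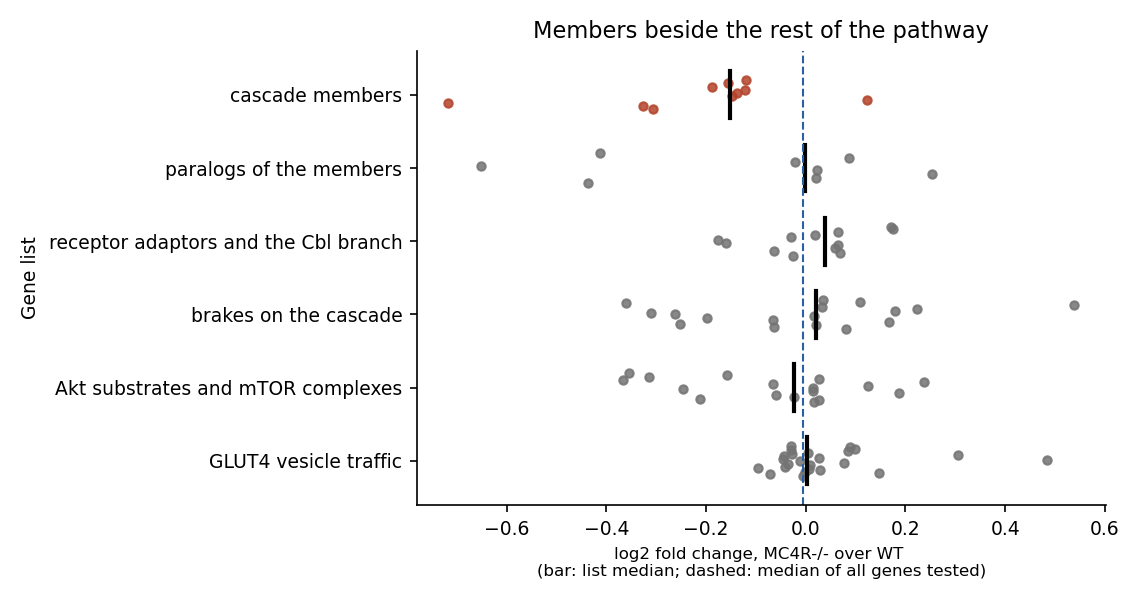
Log2 fold change, MC4R-/- over WT, of every tested gene in the 10 members (red) and 5 other lists of the insulin pathway (grey). Black bars are list medians and the dashed line the median of all genes tested. The members' median is -0.15, and the medians of the other lists lie between -0.02 and 0.04.

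Across the 10 libraries, the genes whose log2 values ran most like Insr among 6997 genes of a mean of at least 100 normalized counts were Retreg1 (Pearson r 0.955), Plpbp (0.940) and Nnt (0.927). Retreg1 encodes a receptor for endoplasmic reticulum phagy and Nnt the mitochondrial nicotinamide nucleotide transhydrogenase. Within the 6 MC4R-/- libraries alone r was 0.810 for Retreg1, 0.566 for Plpbp and 0.904 for Nnt. Most like Slc2a4 were Ldhb, a lactate dehydrogenase subunit (r 0.933), Entpd6 (0.908) and the uracil DNA glycosylase Ung (0.893). Within the MC4R-/- libraries r was 0.371 for Ldhb, 0.576 for Entpd6 and 0.845 for Ung. These values describe 10 libraries that share the genotype split, depth and cell makeup. Several members overlap other genes on the genome (Irs2 with 9530052E02Rik, Pik3ca with Kcnmb3, Pdpk1 with Gm33409, Akt1 with Mir6939 and Gm30150, and Tbc1d4 with Gm34417). With the strand setting of the counting not given in the sources used here, reads from these partners cannot be told apart.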

How the data were processed

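Poly(A) RNA of left ventricle was sequenced in 6 MC4R-/- and 4 WT libraries. Libraries were made with a stranded KAPA kit from 200 ng of total RNA (integrity number above 7), per the labels' protocols. Tools named are, among others, TopHat2 2.1.0, Cufflinks 2.2.1 and Cuffnorm 2.2.1.1, with build mm10, per the submitters' processing notes. Each tool's role and the gene annotation were not given in the sources used here. What the authors deposited is a signal per gene and library: whole reads scaled by 1 factor per library with no division by length, judged from the values, and called normalized counts. In every library 100% of the values checked were whole multiples, within 0.1 of a read, of the value of 1 read. The highest values, among them those of Insr, Akt2 and Slc2a4, were left out of this check and rounded to the nearest read. This gave back 4145033 to 6425785 reads per library. All 10 columns were used. RefSeq accessions matched a symbol in 23984 of 24160 rows (GRCm38.p6 table, the assembly of mm10), 335 of them joining several symbols.

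The genotypes were compared in R 4.3.3 with limma 3.58.1 (trend and robust) on log2(normalized count + 1), for 14611 genes with a mean of at least 1, without covariates, and p-values were adjusted by Benjamini-Hochberg over all of them with a threshold of 0.05. Fold changes on this scale understate the change of low genes. The 6 ratios were tested by exact permutation over 210 splits. Lengths are GENCODE M21 transcripts joined by RefSeq accession, averaged where a row has several. The fitting was tested on simulated data. Alternatives were pseudocounts of 0.5 and 5, a filter of 10 and none, TMM and quantile scaling, limma without trend and robust, library weights, a replicate block, edgeR 4.0.16 and DESeq2 1.42.0 on recovered reads, and fits leaving out libraries. edgeR had been planned as the main test for a table of raw counts, which this is not. Named beside the members are, of each other list, genes past the threshold and the 2 with the smallest p, and the 3 genes most like Insr and Slc2a4; some genes of these lists are not reported here. The members and lists were chosen with earlier results of these data known.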

Additional observations from a re-analysis of the deposited data

Results flagged for a closer look

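Among 52 groups of libraries examined, a group being the MC4R-/- or the WT libraries of a member, a named gene or a ratio, 4 held a library far from the others by Dixon's criterion, all of them WT groups of 4 libraries. Chance alone marks about 1 group in 20. Irs1 reached 283 normalized counts (282.848) in WT replicate 1, against 194 in the nearest other WT library, and the gap took up 0.983 of the group's range, above the critical value of 0.829. The ratio of Tbc1d4 to Tbc1d1 was 7.49 in the same library, against 5.64 in the nearest. Pik3ip1 reached 487 normalized counts (486.875) in WT replicate 4, against 432 in the nearest. Pfkfb2 had 1088 normalized counts (1087.72) in WT replicate 2, the library with lymphocyte markers, against 1393 in the nearest.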

How the results depend on the processing

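All 10 members kept their direction in all 22 alternative settings, and no result reversed. The call of Insr ended with a pseudocount of 5 (log2 fold change -0.31, adjusted p = 0.0538), no filter (-0.31, 0.0817), limma without trend and robust (-0.31, 0.320) and edgeR (-0.31, 0.0613), and the count of called members was then 0 in each. Leaving out 1 library gave -0.39 to -0.26 for Insr and 0 to 1 called members. DESeq2 called 2 members, Akt2 (-0.19) with Insr. Over all genes, where 67 were called, limma without trend and robust called 0, library weights 118, DESeq2 118, and the fit without WT replicate 2 and MC4R-/- replicate 5 together 168. Leaving out 1 library gave 26 without WT replicate 4 to 117 without WT replicate 2. Of the brakes 1 was called with library weights, DESeq2 or both libraries left out, and 0 to 1 without 1 library. Of the Akt substrates 2 were called with library weights, 1 with DESeq2, 2 without both libraries, and 0 to 1 without 1 library. Same-numbered libraries of the genotypes did not vary together (correlations of their deviations -0.32 to -0.05). This gave no sign that the numbers pair them, though a check of only 4 such pairs cannot exclude it. The replicate block takes the genotype difference from these 4 pairs only, since MC4R-/- replicates 5 and 6 have no WT library of their number. With this block 52 genes, 0 members, 1 brake and 1 Akt substrate were called. Insr was then at -0.31 (limma, adjusted p = 0.250), Pik3ip1 at -0.45 (0.0414) and Eif4ebp1 at -0.50 (0.0339). The cause of these shifts was not tested. Among the members, depth limits Irs2 most, at 18 to 46 reads.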
